A study of Mus musculus with 8 samples.

Results

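The interferon-inducible GTPases described here are 8 named genes of the mouse liver, 4 of the immunity-related GTPase (Irg) family (Irgm1, Irgm2, Igtp and Iigp1) and 4 guanylate-binding protein genes (Gbp2, Gbp3, Gbp6 and Gbp7). They were picked by name with their difference between the groups already known, so that difference is given as a description and is not a test of them. A gene was read from a probe set that the array's annotation gives to it alone, and 7 of the 8 have one among the 30627 genes so measured. The probe set annotated for Gbp6 names Gbp10 as well, so Gbp6 is not analysed here. Probe sets can still hybridise with RNA of a near-identical relative, which applies to every gene of these families.

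Livers of 8 male C57BL/6 mice were measured, 1 array each as far as the numbered titles show. All 8 mice ate a high fat diet for 13 weeks, and their age is not given in the labels. In the anti-miR-128-3p group, 4 mice received 5 intraperitoneal injections of an inhibitor of the microRNA miR-128-3p. In the control group, 4 mice received a control that the labels call a vehicle in 1 place, without its content. A treatment field names the microRNA itself where titles and design name the inhibitor, and the groups here follow the titles. The inhibitor's target, miR-128-3p, has the sequence below, with its seed (bases 2 to 8) in capitals, and RefSeq places the same mature sequence in Mir128-1 (GRCm38.p6 chr1:128202404-128202424, plus strand) and in Mir128-2 (chr9:112118644-112118664, minus strand).
mmu-miR-128-3p: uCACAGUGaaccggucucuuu
The sequence of the inhibitor and the 3' ends of the members' transcripts were not used here.

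Irg and Gbp proteins are GTPases that many cell types make after interferon binds its receptor. They gather on the vacuoles in which intracellular parasites and bacteria live, and on damaged membranes, and help to break them open or mark them for autophagy. Interferon-gamma acts through the gamma-activated site (GAS) of a promoter, and type I interferons act chiefly through the interferon-stimulated response element (ISRE). In the liver, hepatocytes as well as macrophages and endothelial cells can respond.

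The files hold no measure of RNA or array quality, and RMA makes the arrays' distributions alike. Median gene signal ran from 5.04 to 5.12 in anti-miR-128-3p livers and from 5.04 to 5.12 in control livers (log2 RMA units, as all signals below), and the negative control rows had medians of 4.33 to 4.48 in anti-miR-128-3p and 4.32 to 4.44 in control livers. The 95th percentile of these rows was 7.40 to 7.53 over the 8 arrays, and 2 of the 7 members, Gbp2 and Gbp3, lay below it on every array. Hepatocyte markers (9 of 10 measured, brightest Alb, Cyp2e1 and Apoa1) had a summed linear signal of 64751 to 72508 in anti-miR-128-3p and 65619 to 71939 in control livers.

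All 7 members had a higher mean in anti-miR-128-3p than in control livers. The log2 differences ran from 0.40 for Iigp1 to 0.87 for Gbp3, with a median of 0.61, beside a median of -0.00 over all 30627 genes, 49.1% of which had a difference above 0. In linear terms the differences were 1.32-fold to 1.82-fold. None was called by the fit over all genes: limma called 0 of 7 members and 0 of 30627 genes (0%) at an adjusted p under 0.05, and 2337 genes had an unadjusted p under 0.05 (limma). The members' adjusted p ran from 0.194 (Irgm1) to 0.798 (Gbp2). In 3 of 7 members (Irgm1, Irgm2 and Gbp3) every anti-miR-128-3p liver lay above every control liver, which holds for 2.52% of all genes (4.41% lacked overlap in either direction), but in Irgm2 the margin was 3e-05. An unadjusted p under 0.05 was reached by 5 of 7 members, and by 4.26% of all genes in that direction (7.63% in either). Since the members were chosen with this contrast known, nothing is read from these counts. RNA of whole liver cannot tell more RNA per cell from more cells of a type that makes it.

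**Figure D1:**
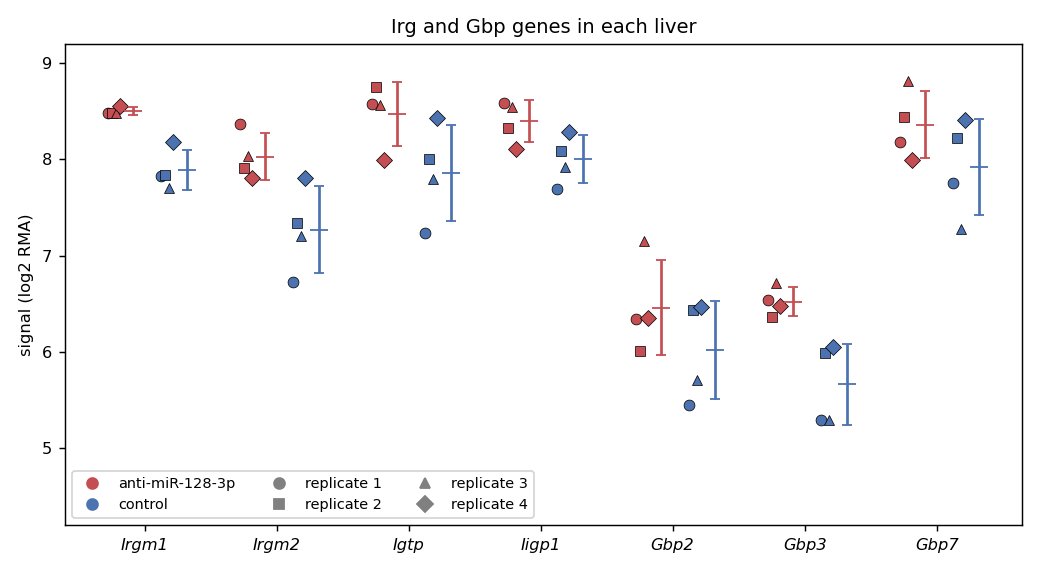
Signal (log2 RMA, y axis) of the 7 measured Irg and Gbp genes in each liver, anti-miR-128-3p in red and control in blue, the symbol giving the replicate number and the bar the mean ± SD (n = 4 each). Control replicate 4 is the highest control point for all 7 genes, and anti-miR-128-3p means are above control means throughout.

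Irgm1, Irgm2 and Igtp (also called Irgm3) encode the regulatory Irg proteins, which sit on the cell's own membranes and hold the effector Irg proteins inactive there. Irgm1, which mice need for resistance to mycobacteria, was at 8.48, 8.48, 8.48 and 8.56 in anti-miR-128-3p livers and at 7.83, 7.84, 7.70 and 8.18 in control livers (replicates 1 to 4). The anti-miR-128-3p livers were nearly alike and all lay at least 0.29 above the highest control. The means were 8.50 ± 0.04 and 7.89 ± 0.21 (SD, n = 4 each), a log2 difference of 0.61 ± 0.09 (SE) or 1.53-fold. With control replicate 4, its highest control, left out, Irgm1 was the only gene of 30627 that limma called (difference 0.71, adjusted p 0.0375). Leaving out the highest control widens the difference, so nothing is read from this call. Irgm1 was not called with all 8 livers (limma adjusted p = 0.194), nor with any other single liver left out.

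Irgm2, a regulatory Irg protein of the Golgi, was at 8.37, 7.91, 8.04 and 7.81 in anti-miR-128-3p livers and at 6.73, 7.34, 7.20 and 7.81 in control livers. The lowest anti-miR-128-3p liver and the highest control liver, replicate 4 of each group, had the same signal to 2 decimals. The difference was 0.76 ± 0.21, or 1.69-fold, with means of 8.03 ± 0.24 and 7.27 ± 0.45 in anti-miR-128-3p and control livers.

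Igtp, a regulatory Irg protein of the endoplasmic reticulum and lipid droplets, was at 8.58, 8.75, 8.57 and 7.99 in anti-miR-128-3p livers and at 7.23, 8.0, 7.80 and 8.43 in control livers. Its groups overlapped, because anti-miR-128-3p replicate 4 lay below control replicates 2 and 4. The difference was 0.61 ± 0.25, or 1.52-fold. It was 0.40 without control replicate 1, the lowest control, and 0.80 without control replicate 4, the highest.

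Iigp1 (also called Irga6), an effector Irg protein that coats the vacuole of Toxoplasma in mouse cells, was at 8.59, 8.33, 8.54 and 8.11 in anti-miR-128-3p livers and at 7.69, 8.09, 7.92 and 8.29 in control livers. Here too anti-miR-128-3p replicate 4 fell among the controls, and only control replicate 4 stood above it. The difference of 0.40 ± 0.14 (1.32-fold) was the smallest of the 7.

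Gbp3 had the largest difference of the members. With Gbp2 and Gbp7 it belongs to the Gbp cluster of chromosome 3, whose loss leaves mice open to Toxoplasma. It was at 6.54, 6.36, 6.72 and 6.48 in anti-miR-128-3p livers and at 5.29, 5.99, 5.29 and 6.05 in control livers. The groups were apart by 0.30, and the controls fell into a low pair (replicates 1 and 3) and a higher pair (replicates 2 and 4). The difference was 0.87 ± 0.19, or 1.82-fold, with means of 6.52 ± 0.15 and 5.66 ± 0.42 in anti-miR-128-3p and control livers. All 8 values lie below the 95th percentile of the negative control rows, as do those of Gbp2, so these folds may not be exact.

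Gbp2, a membrane-anchored GBP recruited to parasite vacuoles and bacteria, was at 6.34, 6.01, 7.15 and 6.35 in anti-miR-128-3p livers and at 5.45, 6.43, 5.71 and 6.47 in control livers. The groups overlapped widely: anti-miR-128-3p replicates 1, 2 and 4 all lay below control replicates 2 and 4. The difference of 0.45 ± 0.29 leaned on anti-miR-128-3p replicate 3 and was 0.22 without it.

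Gbp7, also of the chromosome 3 cluster, was at 8.18, 8.44, 8.81 and 7.99 in anti-miR-128-3p livers and at 7.75, 8.22, 7.28 and 8.41 in control livers. Control replicates 2 and 4 lay within the range of the anti-miR-128-3p livers and control replicate 3 well below it. The difference of 0.44 ± 0.26 was 0.23 without control replicate 3.

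The 4 control livers stood in much the same order for all members. Control replicates 1 and 3 were the lower pair of the 4 for 7 of 7 members, replicate 1 being lowest for 5 and replicate 3 for 2, and replicate 4 was highest for 7 of 7. The mean gene-centred signal of the 7 members was 0.34, 0.23, 0.52 and 0.09 in anti-miR-128-3p replicates 1 to 4, and -0.67, -0.11, -0.54 and 0.14 in control replicates 1 to 4. Control replicate 4 thus lay above anti-miR-128-3p replicate 4. The order was less uniform among the anti-miR-128-3p livers. Their highest was replicate 3 for 3 members, replicate 1 for 2 and replicates 2 and 4 for 1 each. Their lowest was replicate 4 for 4 members, replicate 2 for 2 and replicate 1 for 1. The SD was larger in control than in anti-miR-128-3p livers for 7 of 7 members, and for 50.3% of all genes.

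Within groups the members varied together mainly among the control livers. After each group's mean was removed, the Pearson r over the 8 livers was above 0 for 21 of 21 member pairs, from 0.42 (Irgm1 with Iigp1) to 0.92 (Irgm2 with Iigp1), with a median of 0.65. These are descriptions over 8 arrays that share a normalization and whose deviations are tied by the removal of 2 means. In the 4 control livers alone r was 0.62 to 1.0 over the 21 pairs, and in the 4 anti-miR-128-3p livers alone it was -0.96 to 0.97, with 8 of 21 pairs below 0. Over the 8 livers r was 0.85 to 0.92 among Irgm2, Igtp and Iigp1 and 0.75 to 0.89 among Gbp2, Gbp3 and Gbp7. Between these sets it was 0.46 to 0.76, so the ranges meet. Irgm1 was least tied to the others (r = 0.59 with the mean of the other 6 members). Among the 4 anti-miR-128-3p livers alone, where its range was 0.08, its r with each of the others was below 0, from -0.96 (Igtp) to -0.17 (Gbp2). The other 2 pairs below 0 there were Igtp with Gbp2 (-0.03) and Igtp with Gbp3 (-0.02).

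**Figure D2:**
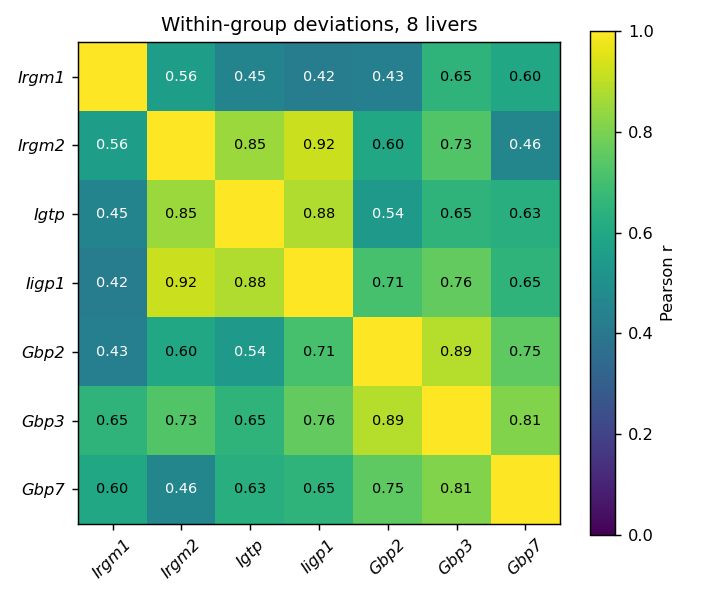
Pearson r between member genes over 8 livers after removal of each group's mean, coloured from 0 to 1. Pairs among Irgm2, Igtp and Iigp1 are at 0.85 to 0.92, pairs among the Gbp genes at 0.75 to 0.89, pairs between those sets at 0.46 to 0.76 and pairs with Irgm1 at 0.42 to 0.65.

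RefSeq promoter windows (GRCm38.p6, 250 bases before the annotated start and 50 from it on) were matched for 6 of the 8 members. Iigp1 and Gbp6 had none. A link between these motifs and the members' variation over the 8 livers was not tested. An ISRE core was searched as GAAA, any 2 bases and GAAA again, and a GAS as TTC, any 3 bases and GAA, both on either strand. In the last 120 bases before the start, given 5′ to 3′ on the gene's strand, capitals mark either motif, and overlapping ISRE cores run into each other. Where Gbp3 has 2 windows, the one with a motif is printed.
Irgm1, chr11:48871421-48871540, minus strand: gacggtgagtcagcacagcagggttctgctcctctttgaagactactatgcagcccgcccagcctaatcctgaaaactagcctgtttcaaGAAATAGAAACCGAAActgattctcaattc
Irgm2, chr11:58214857-58214976, plus strand: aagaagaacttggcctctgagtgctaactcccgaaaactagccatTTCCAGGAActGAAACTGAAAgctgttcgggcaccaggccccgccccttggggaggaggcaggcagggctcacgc
Igtp, chr11:58199436-58199555, plus strand: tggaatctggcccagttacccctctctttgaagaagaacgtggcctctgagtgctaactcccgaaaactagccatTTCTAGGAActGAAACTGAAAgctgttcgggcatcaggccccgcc
Gbp2, chr3:142620543-142620662, plus strand: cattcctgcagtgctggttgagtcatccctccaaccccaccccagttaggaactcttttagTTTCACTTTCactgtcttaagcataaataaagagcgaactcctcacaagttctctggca
Gbp3, chr3:142559924-142560043, plus strand: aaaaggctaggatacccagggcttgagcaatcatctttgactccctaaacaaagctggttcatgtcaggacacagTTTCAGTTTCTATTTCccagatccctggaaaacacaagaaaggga
Gbp7, chr3:142530216-142530335, plus strand: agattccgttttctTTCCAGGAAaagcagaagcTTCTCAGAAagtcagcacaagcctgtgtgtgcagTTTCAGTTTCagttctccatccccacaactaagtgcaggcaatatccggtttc

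An ISRE core was present before all 6 member genes with a window (6 of 7 windows), against 3.44% of the 32851 windows of all genes. The core was also present for 7 of 11 other family genes with a window, so it is not particular to the members. A GAS was present for 3 of the 6 member genes, Irgm2, Igtp and Gbp7. It was present in 8.30% of all windows, a share by window and not by gene. Counting the start base as 0, the ISRE cores began between positions -64 (Irgm2) and -24 (the second core of Irgm1), and those of Irgm1 and Gbp3 were overlapping pairs. The Gbp members shown carried the core on the opposite strand to the Irg members shown. This does not hold for the whole Irg family, since Gm12250, an Irg gene outside the members, had its cores oriented as in the Gbp members. A match is a string of letters and does not show that a factor binds there.

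**Figure D3:**
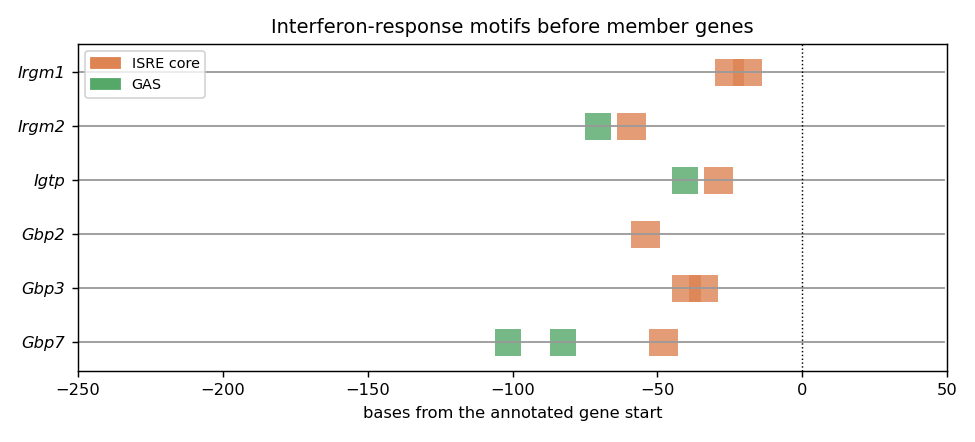
Motif positions in the promoter windows of 6 member genes, in bases from the annotated start (x axis, dotted line at 0), with ISRE cores in orange and GAS in green. Every gene has an ISRE core within 64 bases before the start, and only Irgm2, Igtp and Gbp7 have a GAS.

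Irgm2 and Igtp, neighbours on chromosome 11, hold the 2 motifs in 1 fixed array, a GAS, then 2 bases, then an ISRE core (21 bases in all, searched on either strand). This composite was noticed in the sequences above and then searched for. It occurred in 5 of the 32851 windows (0.0152%), all 5 of Irg family genes on chromosome 11. The elements are printed with 4 bases on either side and the motif letters in capitals.
Irgm2, chr11:58214898-58214926, plus strand: ccatTTCCAGGAActGAAACTGAAAgctg
Igtp, chr11:58199507-58199535, plus strand: ccatTTCTAGGAActGAAACTGAAAgctg
Tgtp1, chr11:48992310-48992338, minus strand: ccatTTCCAGGAAtcGAAACTGAAAccta
Tgtp2, chr11:49064269-49064297, minus strand: ccatTTCCAGGAAtcGAAACCGAAAccta
Gm12185, chr11:48927244-48927272, minus strand: ccatTTCCAGGAAtaGAAAGTGAAAccta
Irgm2 and Igtp matched at 28 of these 29 bases, and Tgtp1 and Tgtp2 likewise at 28. Irgm2 and Tgtp1 matched at 25. The expression of Tgtp1, Tgtp2 and Gm12185 is not analysed here, because their probe sets name several genes.

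Of 25 further Irg, Gbp, Gvin and Mx GTPase genes listed, 15 have a probe set of their own. In these 15 the difference was above 0 for 12, with a median of 0.43 and a range of -0.05 to 1.17, and limma called 0. Groups did not overlap for 2 of them, Mx1 and Mx2, both higher in anti-miR-128-3p livers, as for 2.52% of all genes in that direction. The 3 genes below 0 were Gbp11 (-0.05 ± 0.28), annotated as a pseudogene, F830016B08Rik (-0.03 ± 0.14), an Irg family gene, and Irgq (-0.04 ± 0.10), an Irg relative with no known interferon response in the mouse. Irgc1, the Irg gene of the testis, differed by 0.07 ± 0.09, at a signal near the median of all genes.

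The largest difference among these 15 genes was that of Gvin1, the very large interferon-inducible GTPase. It was at 9.61, 9.35, 9.25 and 8.52 in anti-miR-128-3p livers and at 7.59, 8.64, 7.35 and 8.46 in control livers, a difference of 1.17 ± 0.33 or 2.25-fold (limma adjusted p = 0.389). Again control replicates 1 and 3 were low, and the lowest anti-miR-128-3p liver, replicate 4, lay just below control replicate 2. Gm12250, an Irg gene of chromosome 11, was at 5.79, 6.16, 6.45 and 5.52 in anti-miR-128-3p livers and at 4.25, 4.90, 5.0 and 5.87 in control livers, 0.98 ± 0.32 higher.

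Of the 4 Gbp genes of the chromosome 5 cluster with a probe set of their own, 3 were higher in anti-miR-128-3p livers and the fourth was Gbp11, given above. Gbp9 differed by 0.69 ± 0.24, Gbp8 by 0.52 ± 0.18 and Gbp4 by 0.43 ± 0.20, each with overlapping groups and with control replicates 1 and 3 lowest. The remaining family genes, Gm5431 (0.64 ± 0.23), 9930111J21Rik2 (0.36 ± 0.24), Gm4951 (0.30 ± 0.14) and Gm4841 (0.17 ± 0.11), also had overlapping groups. Mx1 and Mx2, dynamin-like antiviral GTPases annotated as pseudogenes in the C57BL/6 reference, differed by 0.57 ± 0.16 and 0.67 ± 0.22. Mx1, Mx2, Gm5431, 9930111J21Rik2, Gm4841 and Gm12250 lay below the 95th percentile of the negative control rows on every array. Their differences may not be exact.

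**Figure D4:**
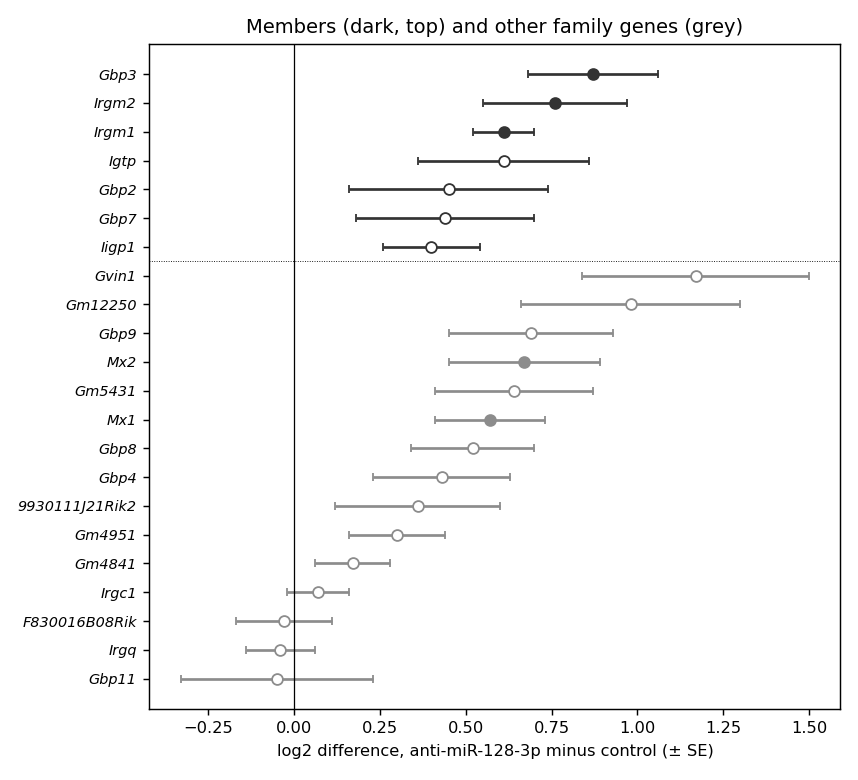
Log2 difference, anti-miR-128-3p minus control, ± limma SE (x axis) for the 7 members (dark, top) and 15 other GTPase genes (grey), filled where the groups do not overlap. Members lie between 0.40 and 0.87, the other genes between -0.05 and 1.17.

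The genes of the interferon pathway around these GTPases differed by list. Of the antiviral genes typical of type I interferon, 21 of 22 listed were measured. All 21 had a difference above 0, as had 49.1% of all genes, with a median of 0.89. In 18 of 21 the groups did not overlap, against 2.52% of all genes in that direction. Usp18, which restrains interferon signalling, was higher by 1.66 ± 0.26, Ifit1, which binds viral RNA, by 1.61 ± 0.24, Ifit3 by 0.99 ± 0.14 and the helicase gene Dhx58 by 0.67 ± 0.10. Ifit3 and Dhx58 lay below the 95th percentile of the negative control rows on every array, as did others of the list. Their differences may not be exact. None of the 21 passed the adjusted threshold (smallest limma adjusted p = 0.194).

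Genes used as markers of interferon-gamma action, 17 of 19 measured, had a median difference of 0.03, with 9 above 0 and 8 below. Groups did not overlap for 3 of them, all higher in anti-miR-128-3p livers, as for 2.52% of all genes in that direction. These were Cxcl11 (0.35 ± 0.07), a chemokine gene annotated as a pseudogene, Tap1 (0.37 ± 0.09) and Psmb9 (0.25 ± 0.08). Tap1 encodes the peptide transporter of antigen presentation, and Psmb9 is an immunoproteasome gene. In Psmb9 the margin was 2e-05. Psmb8 differed by 0.29 ± 0.12. Cxcl11, Psmb9 and Psmb8 lay below the 95th percentile of the negative control rows on every array, as did others of the list. Ido1, Nos2 and Ubd lay below even the median of those rows on every array. The list's median is the value of Nos2 (0.03 ± 0.04), so nothing is read from it. The class II gene H2-Ab1 differed the other way (-0.33 ± 0.26), at 8.04, 7.91, 8.42 and 7.88 in anti-miR-128-3p livers and 7.93, 8.84, 7.84 and 8.94 in control livers. Its controls showed the same low pair (replicates 1 and 3) and high pair (replicates 2 and 4) as the GTPases.

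Among receptors and signalling genes (15 of 16 measured), 12 had a difference above 0 and the median was 0.08. The transcription factor gene Irf7 was at 8.88, 8.33, 9.16 and 8.68 in anti-miR-128-3p livers and at 6.77, 7.69, 6.62 and 7.87 in control livers, so its controls had the members' low and high pairs. Irf7 (1.52 ± 0.30), Irf9 (0.44 ± 0.07) and Stat2 (0.30 ± 0.06) were higher without overlap. They are 3 of the 15 measured, beside 2.52% of all genes in that direction. Ifnar1, a chain of the type I receptor, differed by -0.19 ± 0.07. The ligand genes (10 of 10 measured) had a median difference of -0.01, with 7 below 0. Ifng was at 3.19, 3.09, 3.27 and 3.28 in anti-miR-128-3p livers and at 3.27, 3.32, 3.25 and 3.24 in control livers, and Ifnb1 averaged 3.47 ± 0.06 and 3.38 ± 0.07 in anti-miR-128-3p and control livers. These 2 genes, Ifna2, Il12a and Il12b lay below the median of the negative control rows on every array, so the arrays give 5 of the 10 ligand genes no measurable level. All 10 lay below the 95th percentile of those rows on every array, and nothing is read from the list's median. Ifna4 (-0.14 ± 0.07) and Il18 (0.24 ± 0.08) overlapped between groups.

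Proteins that work with the GTPases on vacuoles, chiefly of autophagy and the inflammasome, had a median difference of 0.02 (18 of 18 measured, 10 above 0 and 8 below). Rnf213, a large ubiquitin ligase that is itself induced by interferon, was 0.78 ± 0.15 higher and Trim21 0.21 ± 0.05 higher, both without overlap. Atg12 was lower without overlap (-0.17 ± 0.06) and Atg3 differed by 0.13 ± 0.08. Atl3, an atlastin and so a relative of the Gbp proteins without interferon induction, differed by 0.01 ± 0.08. No gene of these lists was called by limma.

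**Figure D5:**
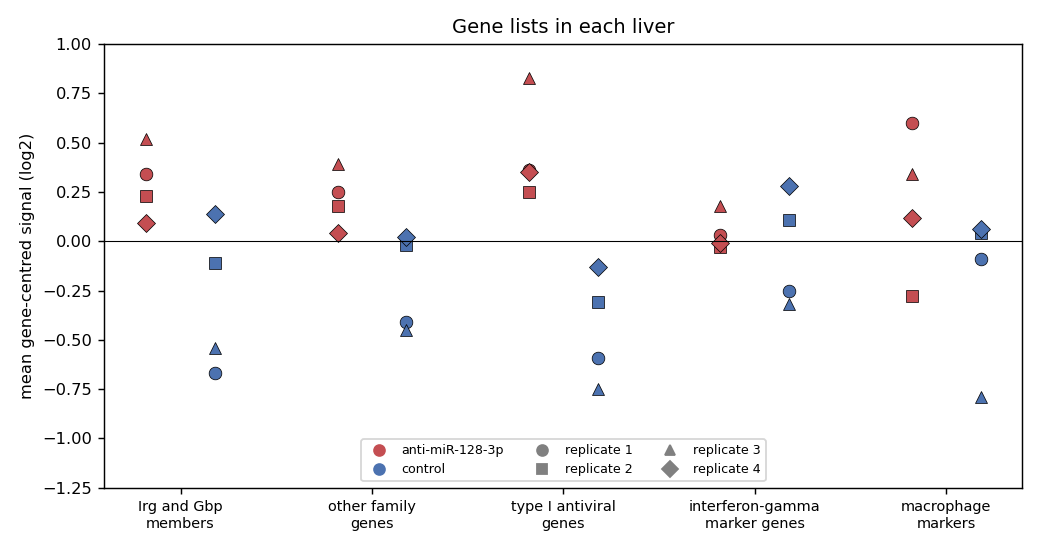
Mean gene-centred signal (log2, y axis) of 5 gene lists in each liver, anti-miR-128-3p in red left of control in blue, the symbol giving the replicate number. In the type I antiviral list all anti-miR-128-3p livers (0.25 to 0.83) lie above all control livers (-0.75 to -0.13), in the interferon-gamma marker list the groups overlap (-0.03 to 0.18 against -0.32 to 0.28), and the members overlap only through control replicate 4.

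Within groups, the mean deviation of the members correlated with that of the interferon-gamma marker list at r = 0.95, with that of the other family genes at 0.96 and with that of the type I antiviral list at 0.85, over 8 livers. It was 0.80 for the autophagy and inflammasome partners and -0.62 for the ligand genes. All 10 ligand genes lay below the 95th percentile of the negative control rows on every array, so nothing is read from their r. The median r of single genes was 0.76, 0.57 and 0.78 in the first 3 lists. Among the partners it was 0.06, so a list mean can have a high r where its genes do not. Of 15307 genes at or above the median signal, those with deviations most like the members' mean were Gsr (glutathione reductase), Apol9a and the tight junction gene Tjp1 (r = 0.99 each). They were followed by Apol9b (0.98), Trim12c (0.97) and Rtp4 (0.96), and by H2-Ab1, the protease inhibitor gene Reck, the microtubule gene Map4 and the Toll-like receptor chaperone gene Unc93b1 (0.95 each). In all, 56 of the 15307 genes (0.37%) had an r above 0.9. Of these 10, Apol9a (0.92 ± 0.22), Apol9b (0.75 ± 0.24), Trim12c (0.54 ± 0.12) and Rtp4 (0.89 ± 0.14) were also higher in anti-miR-128-3p livers. The other 6 differed by -0.33 to 0.10. Apol9a and Apol9b are close copies whose signals may not be separate.

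Markers of other cells moved with some of these values. Macrophage and Kupffer cell markers (16 of 16 measured, brightest Cd5l, Lyz2 and Clec4f) had a difference above 0 in 15, with a median of 0.33. Their summed linear signal was 3300 to 6709 in anti-miR-128-3p livers and 2060 to 4423 in control livers, lowest in control replicate 3, and Ccr2 was at or below the negative control median on every array. Their mean deviation within groups correlated with that of the members at r = 0.52. Lymphocyte and NK cell markers (14 of 15 measured) summed to 402 to 462 in anti-miR-128-3p and 379 to 571 in control livers, the highest being control replicate 4, with Klrb1c, Ncr1 and Ms4a1 at or below the negative control median on every array. Their r with the members was 0.73. Sinusoidal endothelial markers (10 of 10) summed to 2045 to 2732 in anti-miR-128-3p and 2216 to 3356 in control livers (r = 0.69). Dendritic cell markers (9 of 9) summed to 298 to 341 in anti-miR-128-3p and 347 to 445 in control livers (r = 0.54). Of these, Xcr1, Flt3 and Cd209a were at or below the negative control median on every array. Stellate cell markers (10 of 10) summed to 1933 to 4103 in anti-miR-128-3p and 1799 to 2025 in control livers (r = 0.38), highest in anti-miR-128-3p replicate 3. Neutrophil markers (12 of 12) summed to 312 to 389 in anti-miR-128-3p and 316 to 1188 in control livers, with control replicate 1 at the top, and their r with the members was -0.54. The difference was below 0 for 9 of 10 endothelial markers (median -0.25), 10 of 12 neutrophil markers (-0.27) and 6 of 9 dendritic cell markers (-0.01). It was above 0 for 9 of 14 lymphocyte and NK cell markers (median 0.03) and 6 of 10 stellate cell markers (0.11). The part of these cells in the members' values was not tested.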

How the data were processed

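Liver RNA of 8 mice was extracted with TRIzol, labelled with biotin and hybridised to an Affymetrix array, per the labels' protocols. The deposited log2 values were made by the authors with RMA, per the submitters' processing notes. The sources used here give no version, annotation build or filter. Nothing in the labels says more about the animals behind the arrays, so p-values measure the spread between these samples.

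Of 72688 rows, 6732 control rows were left out and 65956 transcript probe sets kept. The platform annotation lists 32750 of these, of which 31080 name 1 gene, after update of symbols through Entrez IDs with a RefSeq table (GRCm38.p6), and 1670 name several. The brightest probe set by mean signal stood for each of the 30627 genes. limma 3.58.1 in R 4.3.3 (lmFit, eBayes, two-sided, Benjamini-Hochberg over all genes) gave differences, anti-miR-128-3p minus control, and their SE. Its steps were tested on simulated data. Alternatives are given in the closing section. Lists, motifs and plots were made in Python 3.11.15 (pandas 2.3.3, matplotlib 3.10.9). A summed marker signal is the sum of 2 to the power of each signal.

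The members and gene lists were chosen with earlier results of these data known. Named are all members, all other family genes with a probe set of their own, up to 4 genes of each pathway list by smallest p, the 10 genes most like the members within groups, and up to 3 brightest marker genes. Ifng, Il12a, Il12b, Ido1, Nos2, Ubd and the cell markers at background were named after their values were seen.

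The replicate numbers of the titles do not pair the mice: deviations of same-numbered livers correlated at r = -0.04, -0.04, -0.11 and -0.15 across genes.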

Additional observations from a re-analysis of the deposited data

Results flagged for a closer look

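A liver far from the other 3 of its group (gap over range above Dixon's critical value) was found in 4 of the 106 gene and group combinations checked, and chance gives about 1 in 20. Irgm1 in anti-miR-128-3p livers was at 8.56 in replicate 4 against 8.48 in each of the others, a gap that is large only beside their very narrow range. F830016B08Rik was at 9.88 in control replicate 4 and at 9.39 to 9.46 in the other controls. Mx2 was at 5.53 in control replicate 3 and at 6.23 to 6.32 in the other controls. Atl3 was at 9.14 in control replicate 2 and at 8.86 to 8.90 in the other controls.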

How the results depend on the processing

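Of 112 alternative values of the 7 members' differences, 35 (5 settings) equal the reported ones by construction: the robust fit with a trend, both filters on low signal, averaged probe sets and the replicate block. The other 77 were all above 0, and 1 of the 112 passed an adjusted p of 0.05 (Irgm1 without control replicate 4). Alternatives were array weights, limma's robust fit with a trend, probe sets averaged within genes, 2 filters on low signal, a further quantile normalization, centring on array medians, the replicate number as a block and leaving out each liver. No member has a second probe set of its own, so averaging probe sets could not change the members' differences. With the replicate block the members' median was 0.61 and 0 genes were called. At an adjusted p under 0.1 the count of genes was 0, and at an unadjusted p under 0.05 it was 2337. Leaving out 1 liver gave 0 to 1 called genes. The members' median was then 0.40 (without control replicate 1) to 0.71 (without control replicate 4). In these settings 3 to 5 members were without overlap (5 without anti-miR-128-3p replicate 4). That liver was the lowest of its group for 4 members, so leaving it out makes separation easier. The other settings gave 2 to 3 members without overlap. The share over all genes was not computed for the alternatives, so nothing is read from these member counts. The median of the other family genes was 0.27 to 0.59 when 1 liver was left out (0.27 without control replicate 3), that of the type I antiviral genes 0.76 to 1.01, that of receptors and signalling genes 0.05 to 0.12 and that of interferon-gamma markers 0.02 to 0.08. Medians near 0 turned sign with 1 liver left out, namely the ligand genes (-0.037 to 0.016), the autophagy and inflammasome partners (-0.0082 to 0.047) and Atl3 (-0.019 to 0.076), which was at -0.00065 with centring on array medians; the cause was not tested. With 4 livers a group, the number of arrays limits the precision, and genes below the negative control rows have no level here.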
